A study of Gallus gallus and Anas platyrhynchos and Coturnix japonica with 11 samples.

Results

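MicroRNA levels in the mesenchyme of the frontonasal prominence (FNP), the part of the embryonic face that builds the upper beak, were compared between duck (Anas platyrhynchos) and quail (Coturnix japonica), birds with different beaks, over 2 stages at once. Duck had 4 samples, 2 at HH20 and 2 at HH25 (Hamburger-Hamilton stages of the chick embryo), and quail had 2 samples, 1 at each stage, so that 6 of the 10 biological samples of the series entered the comparison. Every first sample pooled 40 embryos and each second duck sample pooled 5, whereas quail had first samples only. No bird was treated or carried a transgene, and surface ectoderm and forebrain neuroectoderm had been stripped from the mesenchyme with dispase and needles. Levels are normalized read counts in PMMR (reads of a miRNA scaled to the library's total reads), and all 186 miRNAs of the deposited files were tested. The libraries held 3097711 to 10894243 reads, of which 59.8% and 73.8% fell on the 186 miRNAs in quail and 70.0% to 85.1% in duck, and a single read was worth 0.0918 to 0.323 PMMR.

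MicroRNAs are short RNAs that guide a silencing complex to messenger RNAs, chiefly through the seed at bases 2 to 8, and lower the amount or translation of their targets. Each is cut from a hairpin, of which 1 strand is usually kept and the other, the star strand, is mostly degraded. The FNP mesenchyme derives from cranial neural crest, and its growth shapes the upper beak. Conserved families such as let-7, miR-17-92 and miR-23/27/24 act on proliferation, patterning and bone formation in many vertebrate tissues.

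The sequences below are those of miRNAs and strands on which the comparison turned, with relatives that share a seed or nearly the whole sequence but differed in level. They are printed as the deposited files list them, 5′ to 3′ with the seed in capitals, and they are the chicken, human or zebra finch miRNAs to which reads were matched, not duck or quail sequence.
miR-146b: uGAGAACUgaauuccauaggcg
miR-146a: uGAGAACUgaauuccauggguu
miR-146c: uGAGAACUgaauuccauggacug
miR-27a: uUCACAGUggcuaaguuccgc
miR-27b: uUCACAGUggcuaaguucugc
miR-24: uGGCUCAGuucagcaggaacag
miR-16: uAGCAGCAcguaaauauuggug
miR-16c: uAGCAGCAcguaaauacuggag
let-7k: uGAGGUAGuagauugaauaguu
let-7f: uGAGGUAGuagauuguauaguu
miR-3529: aGGCAGACugugacuuguugu
miR-2970: gACAGUCAgcaguuggucug
miR-215: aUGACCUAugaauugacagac
miR-192: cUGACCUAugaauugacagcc
miR-301: cAGUGCAAuaauauugucaaagcau
miR-301*: uCUGACAAuguugcacuac
miR-199: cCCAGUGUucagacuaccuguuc
miR-199*: uACAGUAGucugcacauugg
The 3 miR-146 members share a seed, with 3 mismatches between miR-146b and the nearest of the others, and miR-146a lies 2 mismatches from miR-146c. miR-27a lies 1 mismatch from miR-27b, let-7k 1 mismatch from let-7f, miR-16 2 mismatches from miR-16c, and miR-215 2 mismatches from miR-192. Reads had been matched with up to 2 mismatches, so reads within such a pair could have gone to either member.

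Duck differed from quail in 26 of the 186 miRNAs (14.0%), of which 15 were higher in duck (8.06%) and 11 lower (5.91%). The test was limma's moderated test on log2(PMMR + 1) with stage as a term, Benjamini-Hochberg adjusted over all 186 miRNAs at a threshold of 0.05, and 53 miRNAs had an unadjusted p under 0.05. The higher miRNAs included the immune-response miRNA miR-146b, miR-31, let-7k, members of the miR-23/27/24 clusters and the abundant miR-16 and miR-16c. The lower ones included miR-3529, miR-215, miR-2970, miR-199* and the avian miR-2954. For all 26, both duck samples lay on the same side of quail at HH20 and at HH25, which was also true of 88 of the 186 miRNAs (47.3%), 47 above quail (25.3%) and 41 below (22.0%). Over all miRNAs the median log2 difference was -0.00, with 93 above and 93 below 0. The p-values rest on 3 residual degrees of freedom, and within a stage the spread between samples was measured in duck alone. Leaving out the quail HH20 sample left 14 calls, the quail HH25 sample 11 and the first duck sample at HH25 14, and in the fit of all 10 samples 11 remained called. Passing under each of the 10 other settings and each left-out sample were 8 miRNAs, namely miR-3529, miR-146b, miR-215, miR-2970, miR-1261, miR-1329, miR-1662 and let-7k. In pooled tissue, fewer cells of a type and less RNA per cell cannot be told apart.

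**Figure D1:**
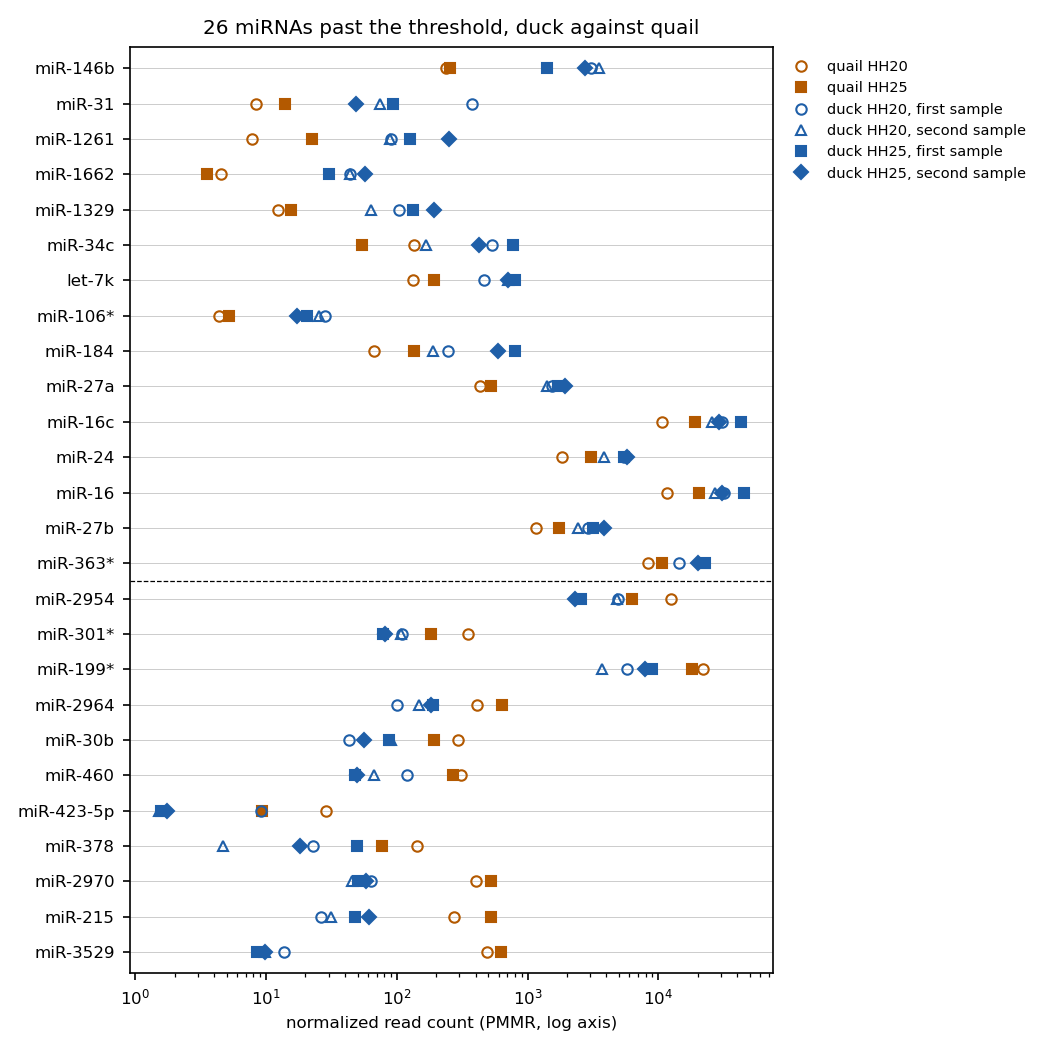
Normalized read count (PMMR, log axis) of the 26 miRNAs past the threshold in each of the 6 samples, with quail in orange, duck in blue, HH20 as open and HH25 as filled symbols. The 15 miRNAs above the dashed line were higher in duck and the 11 below it lower, and each row shows both duck samples of a stage on the same side of the quail sample of that stage.

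miR-146b, whose family dampens NF-kB signalling in mammalian immune cells, had the largest difference upward. Quail had 235.6 PMMR (HH20) and 254.4 PMMR (HH25). In duck it was at 3041 and 3534 PMMR at HH20 and at 1394 and 2752 PMMR by HH25. Every duck sample was far above both quail samples, and the lowest was the first duck sample at HH25. The log2 difference was 3.37 ± 0.36 (SE; n = 4 duck and 2 quail samples), a 10.3-fold higher level on the log2(PMMR + 1) scale (adjusted p = 0.000148). Its relatives with the same seed did not follow. miR-146a was at 49111 and 48752 PMMR in quail and between 30769 and 60226 PMMR in duck, and the species overlapped (log2 difference 0.03 ± 0.32, adjusted p = 0.965). Close to it in value, miR-146c had 39107 and 39398 PMMR in quail and 26167 to 51278 PMMR in duck (0.07 ± 0.31, adjusted p = 0.910). miR-146a and miR-146c lie 2 mismatches apart and their values moved together from sample to sample, so they are not independent of each other.

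miR-31, which is abundant in epithelia, was at 8.42 and 13.9 PMMR in quail. The duck values were 378.3 and 74.5 PMMR (HH20) and 93.8 and 48.5 PMMR (HH25). The duck samples spread widely but none reached down to quail (log2 difference 3.18 ± 0.70, adjusted p = 0.0105). The call was lost without the quail HH20 sample or the first duck sample at HH25, with an adjusted p of up to 0.162, and in the fit of all 10 samples. miR-184, known from lens, cornea and epidermis, was at 67.2 and 135.3 PMMR in quail, at 245.8 and 189.9 PMMR in duck at HH20 and at 801.7 and 597.9 PMMR in duck at HH25. It was higher at HH25 in both species and higher in duck at both stages (2.01 ± 0.38, adjusted p = 0.00454), although not called without the quail HH25 sample (adjusted p = 0.128) or in the fit of all 10 samples (adjusted p = 0.250).

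Among miRNAs of low level in quail, miR-1261, miR-1662 and miR-1329 stood out. miR-1261 was at 7.74 and 22.6 PMMR in quail and at 90.7, 89.1, 126.8 and 251.2 PMMR in duck, in the order first and second sample at HH20 and then at HH25 (log2 difference 3.15 ± 0.47, adjusted p = 0.00123). miR-1662 was at 4.55 and 3.55 PMMR in quail, from 20 and 11 reads, and at 43.6, 44.0, 30.2 and 57.2 PMMR in duck (3.12 ± 0.51, adjusted p = 0.00181). miR-1329 was at 12.3 and 15.5 PMMR in quail and at 104.7, 63.1, 131.8 and 192.7 PMMR in duck (2.96 ± 0.47, adjusted p = 0.00181). In all 3 both duck samples lay above quail at each stage (25.3% over all miRNAs), in the same samples from which they were called.

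let-7k belongs to the let-7 family, which promotes differentiation and represses LIN28. It was at 133.6 and 192.4 PMMR in quail and at 460.8, 712.8, 801.4 and 713.6 PMMR in duck. The duck samples formed a group above quail, 4.09-fold on the log2(PMMR + 1) scale (log2 difference 2.03 ± 0.34, adjusted p = 0.00214). Of the 10 let-7 strands measured it was the single member called (8.06% called higher over all miRNAs), and the family's median log2 difference was 0.31 beside -0.00 over all miRNAs. let-7f, at 1 mismatch, was at 6533 and 13094 PMMR in quail and at 13097, 6518, 45741 and 19169 PMMR in duck, so that the second duck sample at HH20 fell just under quail (0.84 ± 0.41, adjusted p = 0.187). let-7d had lower values in duck (-1.27 ± 0.66, adjusted p = 0.211).

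miR-34c, which p53 induces in mammals, was at 135.7 (HH20) and 54.2 PMMR (HH25) in quail. The duck samples held 529.5 and 166.6 PMMR (HH20) and 771.5 and 422.1 PMMR (HH25). The second duck sample at HH20 was just 1.23-fold above quail, whereas at HH25 the duck samples were 14.2-fold and 7.78-fold above it. The difference over both stages was 2.25 ± 0.60 on the log2 scale (adjusted p = 0.0266), and the call was lost without the quail HH25 sample or the first duck sample at HH25, with an adjusted p of up to 0.547, and in the fit of all 10 samples (adjusted p = 0.467). miR-34a, of the same seed, lay on the other side, with 18.4 and 11.9 PMMR in quail and 1.89 to 9.49 PMMR in duck (-1.73 ± 0.57, adjusted p = 0.0739). By limma voom and without the intensity trend miR-34a was called lower. Without that trend miR-34c was not called (limma, adjusted p = 0.0680). Quail at HH20 was the only sample of the 10 to exceed 15 PMMR in miR-34a, the limit for entering the deposited set. That limit therefore favoured a lower level of miR-34a in duck, so its direction opposite to miR-34c says little.

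The miR-23/27/24 clusters restrain osteoblast differentiation in mouse. Of the 6 strands measured 3 were called, all higher in duck (8.06% over all miRNAs), and for all 6 both duck samples lay above quail at each stage (25.3% over all miRNAs). The median log2 difference was 1.04 beside -0.00 over all miRNAs, and in the fit of all 10 samples 1 of the 6 was called, miR-27a. miR-27a was at 433.9 and 521.4 PMMR in quail and at 1530, 1417, 1694 and 1915 PMMR in duck (1.77 ± 0.29, adjusted p = 0.00181). miR-24 was at 1838 and 3069 PMMR in quail and at 5471, 3838, 5498 and 5741 PMMR in duck (1.09 ± 0.29, adjusted p = 0.0266). miR-27b was at 1167 and 1735 PMMR in quail and at 2873, 2422, 3138 and 3828 PMMR in duck (1.09 ± 0.28, adjusted p = 0.0266). The called members were above quail in the same samples from which they were called. miR-23a had 172.6 and 191.4 PMMR in quail and 237.5 to 488.4 PMMR in duck (0.99 ± 0.37, adjusted p = 0.109). miR-23b had 273.0 and 286.7 PMMR in quail and 347.5 to 705.3 PMMR in duck (0.84 ± 0.35, adjusted p = 0.138), and the star strand miR-27b* had 33.2 and 36.8 PMMR against 40.0 to 98.3 PMMR (0.80 ± 0.54, adjusted p = 0.346). In the RefSeq chicken gene table (GRCg7b), miR-24 and miR-27b lie next to miR-23b on chromosome Z. No hairpin was matched to miR-27a, and the paper counts miR-24 in a cluster with miR-23a and miR-27a. From which hairpin the miR-24 reads came was not tested. Summed over the 6 strands, quail had 3917 and 5841 PMMR and duck 8570 to 12777 PMMR. miR-24 and miR-27b lost their calls without either quail sample or without the first duck sample at HH25, with an adjusted p of up to 0.455 for miR-24 and 0.379 for miR-27b. Neither was called in the fit of all 10 samples (adjusted p = 0.104 and 0.0731), with first samples only (0.0976 and 0.114) or without the intensity trend (0.0889 and 0.0785), and miR-27a lost its call without the quail HH25 sample (adjusted p = 0.0555).

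**Figure D2:**
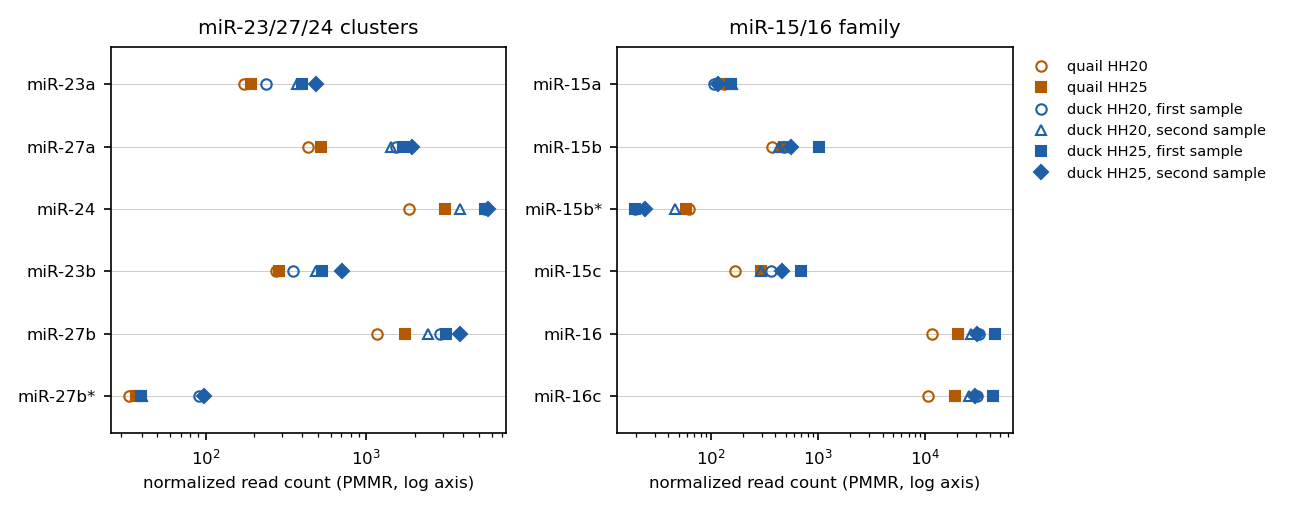
Normalized read count (PMMR, log axis) of the 6 strands of the miR-23/27/24 clusters (left) and of the miR-15/16 family (right) in each sample, quail in orange and duck in blue. All miR-23/27/24 strands had the duck samples of a stage above quail, as had miR-15b, miR-15c, miR-16 and miR-16c, while miR-15b* lay below it and miR-15a overlapped.

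The miR-15/16 family represses cyclins and BCL2 in human cells. miR-16 was at 11700 and 20355 PMMR in quail and at 31950, 26935, 44855 and 30370 PMMR in duck (1.09 ± 0.29, adjusted p = 0.0266). miR-16c was at 10674 and 19018 PMMR in quail and at 30839, 25473, 42737 and 29228 PMMR in duck (1.14 ± 0.29, adjusted p = 0.0261). The 2 sequences lie 2 mismatches apart and their values moved together from sample to sample, so they are not independent of each other. For miR-16 and miR-16c both duck samples lay above quail at each stage (25.3% over all miRNAs), in the same samples from which they were called. miR-15c was called in neither direction (169.2 and 292.2 PMMR in quail, 292.5 to 686.9 PMMR in duck, 0.94 ± 0.35, adjusted p = 0.109), nor were miR-15b (0.47 ± 0.36), miR-15a (0.05 ± 0.41) and miR-15b* (-1.21 ± 0.52). With 2 of 6 called higher (8.06% over all miRNAs), the median log2 difference of the family was 0.71 beside -0.00 over all miRNAs. Without the intensity trend neither miR-16 nor miR-16c was called (limma, adjusted p = 0.0972 and 0.0854). In the fit of all 10 samples the adjusted p of both miR-16 and miR-16c was 0.151, and with first samples only it was 0.0628. Without either quail sample or without the first duck sample at HH25, neither miR-16 nor miR-16c was called, with an adjusted p of up to 0.459 for miR-16 and 0.434 for miR-16c.

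In the cluster of miR-106 and miR-363, a paralogue of miR-17-92 that promotes proliferation in mammals, 2 of 9 strands were called higher (8.06% over all miRNAs). Both were star strands. miR-363* was at 8254 and 10740 PMMR in quail and at 14454, 22453, 22670 and 19997 PMMR in duck (1.06 ± 0.29, adjusted p = 0.0289). miR-106* was at 4.33 and 5.17 PMMR in quail, from 19 and 16 reads, and at 28.2, 25.4, 20.5 and 17.3 PMMR in duck (2.03 ± 0.51, adjusted p = 0.0259). Their partner strands were not higher in duck. miR-363 was at 43614 and 47618 PMMR in quail and at 26902 to 53741 PMMR in duck (-0.29 ± 0.30, adjusted p = 0.550), and miR-106 was at 12962 and 15973 PMMR in quail and at 10902 to 13716 PMMR in duck (-0.26 ± 0.27, adjusted p = 0.550). Of the 10 strands of miR-17-92, none was called by limma on log2(PMMR + 1) or by limma voom on recovered reads, and 1 had an unadjusted p under 0.05. miR-363* was not called with a replicate block for the sample number (adjusted p = 0.0699), in the fit of all 10 samples (adjusted p = 0.0869) or without the intensity trend (adjusted p = 0.102). Nor was it called with first samples only or without the second duck sample at HH20 (adjusted p = 0.0739). Both star strands lost their calls without either quail sample or without the first duck sample at HH25, with an adjusted p of up to 0.402 for miR-106* and 0.379 for miR-363*.

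miR-3529 had the largest difference of all 186 miRNAs. It was at 489.3 and 622.7 PMMR in quail, from 2149 and 1929 reads. The duck samples held 13.6 and 9.83 PMMR (HH20) and 8.50 and 9.73 PMMR (HH25), from 27 reads in the lowest. Every duck sample was at least 35.9-fold under the quail sample of its stage, and the fitted difference was -5.62 ± 0.47 (adjusted p = 2.16e-05), or 49.0-fold. Chicken, which was not part of the test, was at 76.0 to 120.3 PMMR. Its hairpin overlaps that of miR-7-2 in the RefSeq chicken table. miR-7, a miRNA of neurons and endocrine cells, was at 476.1 and 386.4 PMMR in quail and at 134.3 to 781.3 PMMR in duck and was not called (-0.43 ± 0.46, adjusted p = 0.569).

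miR-215, known from the intestine and kidney of mammals, was at 275.7 and 524.6 PMMR in quail and at 26.1, 31.4, 47.5 and 61.5 PMMR in duck. It was higher at HH25 in both species, and the duck samples were lower throughout (-3.24 ± 0.42, adjusted p = 0.000544). miR-192, with the same seed, was at 55.1 and 24.2 PMMR in quail and between 11.6 and 107.6 PMMR in duck, with overlap (-0.24 ± 0.83, adjusted p = 0.882). miR-2970, named from zebra finch, was at 400.7 and 522.3 PMMR in quail and at 63.2, 45.0, 50.3 and 57.8 PMMR in duck, which makes a compact duck group 8.39-fold under quail (-3.07 ± 0.41, adjusted p = 0.000554). miR-2964, whose hairpin overlaps that of miR-219, was at 407.3 and 635.6 PMMR in quail and at 99.3, 148.2, 188.8 and 182.4 PMMR in duck (-1.75 ± 0.37, adjusted p = 0.00777). Its call was lost without either quail sample (adjusted p up to 0.128). miR-460 was at 311.5 and 267.9 PMMR in quail and at 118.6, 66.8, 47.5 and 49.6 PMMR in duck (-2.12 ± 0.43, adjusted p = 0.0070). It was not called without the quail HH25 sample, with first samples only or in the fit of all 10 samples (adjusted p = 0.262 in the last).

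miR-199*, which in mouse is made with miR-214 from the Dnm3os transcript of mesenchyme, was at 21859 and 18222 PMMR in quail. Duck had 5740 and 3724 PMMR (HH20) and 9007 and 7883 PMMR (HH25), so that every duck sample was under both quail samples (-1.68 ± 0.33, adjusted p = 0.00585). The call was lost without the quail HH20 sample (adjusted p = 0.304) and in the fit of all 10 samples, where the adjusted p was 0.499. With first samples only the call was lost too. The partner strand miR-199 was at 2253 and 2857 PMMR in quail and at 2553 to 5005 PMMR in duck (0.39 ± 0.30, adjusted p = 0.401). Both strands were abundant in every sample, a pair of strands typical of facial mesenchyme.

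miR-2954 is a bird miRNA encoded on chromosome Z that is higher in males than in females in chicken and zebra finch. The sources used here do not give the sex of the pooled embryos. Among the other called miRNAs, miR-24, miR-27b and miR-31 were also matched to hairpins on chromosome Z, and the part of sex in any call was not tested. For miR-2954, quail had 12565 (HH20) and 6275 PMMR (HH25), and duck had 4869 and 4840 PMMR (HH20) and 2554 and 2301 PMMR (HH25). The level was lower at HH25 in both species, and the duck samples of a stage were close to each other and under quail (-1.37 ± 0.27, adjusted p = 0.00524). The call was lost without either quail sample (adjusted p up to 0.127) and in the fit of all 10 samples (adjusted p = 0.262). With first samples only it was lost as well. Of the 6 avian strands on the list miR-2954 alone was called over all 6 samples (5.91% called lower over all miRNAs). Its star strand miR-2954* ran from 72.9 to 1362 PMMR in duck, across quail at 909.5 and 588.5 PMMR (-1.24 ± 0.58, adjusted p = 0.187).

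miR-30b, miR-301*, miR-378 and miR-423-5p made up the rest of the lower miRNAs. miR-30b was at 295.7 and 190.8 PMMR in quail and at 43.0, 90.6, 87.5 and 55.7 PMMR in duck (-1.83 ± 0.48, adjusted p = 0.0266), against the other miR-30 strands, of which 8 of 10 in the family had positive differences (miR-30a-5p 0.63 ± 0.26, adjusted p = 0.138). miR-301* was at 351.3 and 181.4 PMMR in quail and at 108.5, 107.7, 78.7 and 81.1 PMMR in duck (-1.43 ± 0.39, adjusted p = 0.0296). For miR-30b and miR-301*, called on the same samples, both duck samples lay below quail at each stage (22.0% over all miRNAs). miR-378, tied to metabolism in mammals, was at 143.7 and 77.5 PMMR in quail and at 22.8, 4.64, 49.4 and 18.3 PMMR in duck (-2.49 ± 0.74, adjusted p = 0.0446), and miR-423-5p was at 28.5 and 9.36 PMMR in quail and at 9.19, 1.51, 1.57 and 1.74 PMMR in duck, where the lowest count was 5 reads (-2.25 ± 0.66, adjusted p = 0.0422). The first duck sample at HH20 was close to quail at HH25 in miR-423-5p. Of the 10 samples, quail at HH20 alone exceeded 15 PMMR in miR-423-5p, the limit for entering the deposited set. That limit therefore favoured a lower level in duck for this miRNA. With the replicate block miR-301* and miR-378 lost their calls, and under a pseudocount of 0.1 miR-378 and miR-423-5p did. At a minimum mean of 15 PMMR miR-378 lost its call and miR-423-5p was not fitted. None of the 4 was called in the fit of all 10 samples (adjusted p = 0.140 for miR-30b, 0.0567 for miR-301*, 0.119 for miR-378 and 0.151 for miR-423-5p). Median-centring lost all but miR-30b, first samples only all but miR-423-5p, and the fit without the intensity trend miR-378. All 4 lost their calls without the quail HH20 sample or the first duck sample at HH25, and miR-30b, miR-301* and miR-423-5p without the quail HH25 sample.

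Where both strands of a hairpin, paired by name, were measured, their ratio of PMMR within a library compares the strands free of library scaling. The fit took the difference of their log2(PMMR + 1), which still depends on scaling where a strand is low. Over 41 such pairs the same fit called 3 (7.32%), a test added after the values had been seen, and 7 pairs had a called strand but none had both strands called. The ratio of miR-301 to miR-301* was 1.15 and 1.09 in quail and 4.87, 5.24, 7.08 and 10.3 in duck, so that the strands were balanced in quail and miR-301 prevailed in duck (log2 difference of the ratio 2.54 ± 0.41, adjusted p = 0.00831). The ratio of miR-199 to miR-199* was 0.103 and 0.157 in quail and 0.505, 0.686, 0.364 and 0.635 in duck (2.06 ± 0.45, adjusted p = 0.0295). The star strand prevailed over its partner in every sample, more so in quail. In the RefSeq chicken table miR-199* was matched to hairpins on chromosomes 8 and 17, and miR-301* to hairpins on chromosomes 15 and 19. These ratios may therefore mix strands of different hairpins, which was not tested. The ratio of miR-106 to miR-106* was 2994 and 3090 in quail and 387.0, 493.9, 670.7 and 637.4 in duck (-2.29 ± 0.52, adjusted p = 0.0295). With a pseudocount of 10 its difference was -1.41 and it was not called (limma, adjusted p = 0.0697). No duck sample overlapped quail in these 3 ratios, which were called on the same samples. The species did not overlap either in the ratios of the miR-15b, miR-19b, miR-126, miR-302b, miR-363 and miR-2131 pairs, none of which was called. Lack of overlap was thus not particular to the 3 called ratios. All 3 lost their calls without either quail sample and with first samples only (limma, adjusted p = 0.0577 to 0.434), while that of miR-301 held without any single duck sample. miR-301b-3p lies 1 mismatch from miR-301, and how their reads were divided was not tested. In levels, miR-301 was at 403.7 and 197.2 PMMR in quail and at 528.9 to 833.7 PMMR in duck (1.11 ± 0.39, adjusted p = 0.0920), and miR-301b-3p at 319.4 and 161.4 PMMR against 447.7 to 687.0 PMMR (1.14 ± 0.40, adjusted p = 0.0896).

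**Figure D3:**
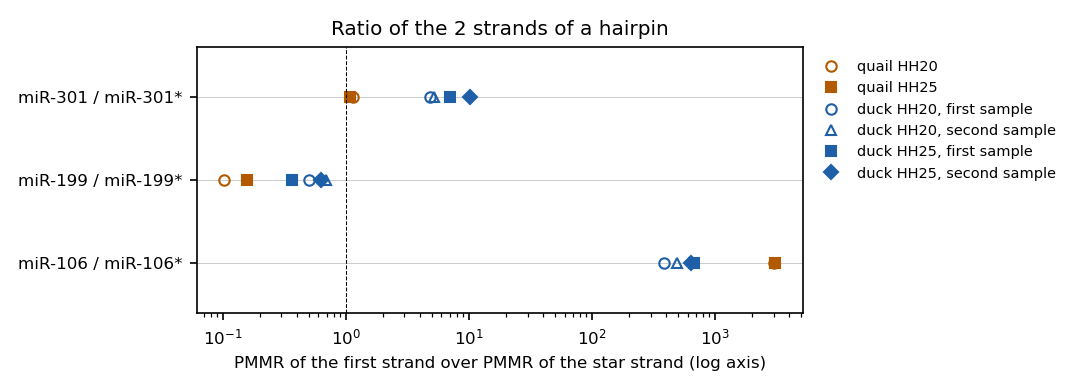
PMMR of the first strand divided by PMMR of the star strand (log axis) in each of the 6 samples for the 3 strand pairs whose ratio differed, with quail in orange and duck in blue and equal strands at the dashed line. Quail was near 1 for miR-301 (1.15 and 1.09) where duck ran from 4.87 to 10.3, and the order was the opposite for miR-106.

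At a single stage quail had 1 sample, so ratios are given without a test. At HH20, 65 miRNAs (34.9%) differed at least 2-fold between the first duck sample and quail with more than 15 PMMR in either, 28 higher (15.1%) and 37 lower in duck (19.9%), and 66 with the second duck sample (35.5%), 29 higher (15.6%) and 37 lower (19.9%). At HH25 the counts were 64 (34.4%), 32 in each direction (17.2%), and 72 (38.7%), 36 in each direction (19.4%). In both duck samples at HH20 16 were higher (8.6%) and 22 lower (11.8%), and at HH25 18 (9.68%) and 22 (11.8%). Reaching 2-fold in both duck samples at both stages were 9 miRNAs upward (4.84%) and 11 downward (5.91%), of which 9 and 9 were also called. The remaining pair, named after their values were seen, was miR-139-5p (78.5 and 55.2 PMMR in quail, 20.9 to 37.9 PMMR in duck, adjusted p = 0.109) and miR-190b (17.5 and 15.2 PMMR in quail, 3.13 to 5.69 PMMR in duck, adjusted p = 0.0681). Whether the species difference itself changed between the stages was tested as an interaction. No miRNA passed by limma on log2(PMMR + 1) or by limma voom, with 4 and 3 miRNAs at an unadjusted p under 0.05, and the 2 residual degrees of freedom come from the duck pairs alone. Among the 26 called, miR-34c was the 1 with an unadjusted p under 0.05, since its difference was 1.13 at HH20 and 3.37 at HH25 (interaction 2.25, unadjusted p = 0.0357). miR-378 went the other way in value, with -3.64 at HH20 and -1.33 at HH25 (unadjusted p = 0.0966).

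**Figure D4:**
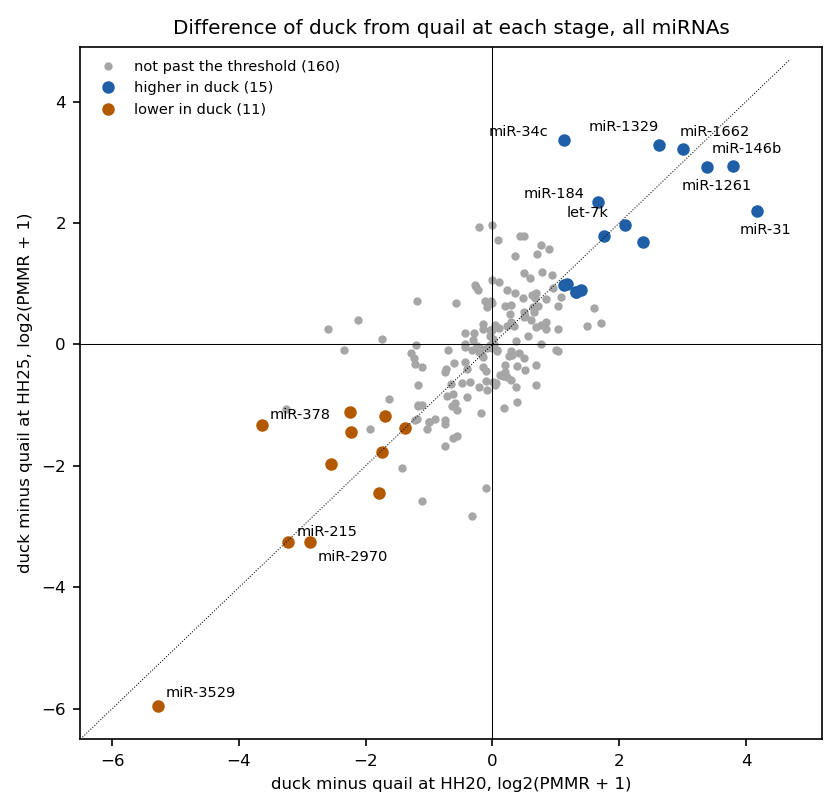
Mean duck minus quail difference in log2(PMMR + 1) at HH20 (x axis) and HH25 (y axis) for all 186 miRNAs, with the 15 higher in blue, the 11 lower in orange, the rest in grey and equal differences on the dotted line. miR-3529 stands alone at the lower left (-5.28 and -5.95), and miR-34c (1.13 and 3.37) and miR-378 (-3.64 and -1.33) lie far from the dotted line.

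A list of 15 miRNAs drawn up for higher levels in duck than in chicken and quail at both stages had 7 called higher (8.06% over all miRNAs) and none lower, with a median log2 difference of 1.09, and a list of 6 drawn up for lower levels had 4 called lower (5.91% over all miRNAs), with a median of -2.46. The first list had 3 called in the fit of all 10 samples and with first samples only, and 11 with median-centring, while the second had 4 in each. Both lists had been chosen on the first samples of these libraries and are not independent evidence of their direction. Of the first list, miR-146b, miR-27a, miR-27b, miR-24, miR-16c, miR-106* and miR-363* were called. Short of the threshold were miR-144* (1305 and 1108 PMMR in quail, 1733 to 2274 PMMR in duck, 0.77 ± 0.29, adjusted p = 0.109) and miR-1552-5p (269.3 and 202.7 PMMR in quail, 366.4 to 731.0 PMMR in duck, 1.23 ± 0.39, adjusted p = 0.0611). The epithelial miR-200a was at 473.5 and 308.9 PMMR in quail and at 869.0, 284.3, 642.5 and 127.6 PMMR in duck, and miR-200b was at 144.3 and 75.2 PMMR in quail and at 211.7, 79.5, 128.4 and 33.0 PMMR in duck. The first duck samples lay above quail and the second below, in both miRNAs (-0.02 ± 0.62 and -0.18 ± 0.60, adjusted p = 0.983 and 0.882). Of the second list, miR-1388 (33.0 and 43.6 PMMR in quail, 4.09 to 17.7 PMMR in duck, adjusted p = 0.0611) and miR-18a* (adjusted p = 0.277) were not called.

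Markers of tissues that the dissection could have carried along were set beside these results. Over all 186 miRNAs 14.0% were called and 53 had an unadjusted p under 0.05, and 17 of the 33 lists had no member called. Lists this small can hold no call by their size alone, so counts of 0 do not show that a tissue was equal between species. The 5 surface ectoderm markers (miR-200a, miR-200b, miR-429, miR-203 and miR-205a) summed to 1287 and 753.2 PMMR in quail and to 417.5 to 1915 PMMR in duck. None was called by limma on log2(PMMR + 1), by limma voom or at an unadjusted p under 0.05, and the first duck samples held more than the second at both stages. miR-31, which epithelia also express, was highest in the same sample as the sum of these markers, the first duck sample at HH20. In the first duck samples the markers summed to 1915 and 1461 PMMR, above quail of the same stage, and miR-31 was 44.9-fold (HH20) and 6.76-fold (HH25) above quail. In the second duck samples the markers summed to 643.1 and 417.5 PMMR, under quail of the same stage, and miR-31 was 8.85-fold (HH20) and 3.49-fold (HH25) above quail. Of the 5 markers, miR-203 alone was above quail in the second duck sample at HH25. It was at 33.9 PMMR in quail and at 143.5 and 91.2 PMMR in duck at HH25. At HH20 miR-203 was at 42.1 PMMR in quail and at 88.1 and 22.7 PMMR in duck. It was called without the second duck sample at HH20. The part of ectoderm in the difference of miR-31 was not tested. The neurosensory miRNAs miR-183, miR-96 and miR-182, abundant in sensory placodes, summed to 2382 and 3164 PMMR in quail and 2773 to 7499 PMMR in duck (miR-182 1.10 ± 0.39, adjusted p = 0.0920). None of them was called by limma or limma voom, and 1 had an unadjusted p under 0.05. With the replicate block miR-182 (1.36, adjusted p = 0.00350) and miR-183 (1.55, adjusted p = 0.00132) were called higher in duck, likewise without the second duck sample at HH25, and with median-centring miR-182 was called (adjusted p = 0.0451). For the 5 neural markers the sums were 1399 and 1198 PMMR in quail and 957.8 to 1806 PMMR in duck, with none called by either test and 1 at an unadjusted p under 0.05. The 3 red blood cell strands summed to 1633 and 1621 PMMR in quail and 1942 to 2528 PMMR in duck. None was called by either test, and 2 had an unadjusted p under 0.05, miR-144* with higher and miR-451, made from the same transcript in mammals, with lower values (311.0 and 509.7 PMMR in quail, 164.0 to 250.8 PMMR in duck, adjusted p = 0.108). The 2 endothelial strands summed to 21774 and 24499 PMMR in quail and 24781 to 40678 PMMR in duck, the 3 white blood cell strands to 343.3 and 232.1 PMMR against 207.4 to 675.1 PMMR, and the 2 muscle strands to 265.5 and 510.7 PMMR against 147.3 to 392.9 PMMR. None of these 7 was called by either test or had an unadjusted p under 0.05. The red blood cell and endothelial sums were higher in every duck sample than in quail, and their part in the differences of the 15 higher miRNAs was not tested. The endothelial sum followed miR-126 (log2 difference 0.60 ± 0.29), while miR-126* had a negative difference (-0.35 ± 0.30). In the first duck sample at HH25 that sum was 24781 PMMR, close to quail of that stage at 24499 PMMR. The liver miRNA miR-122 was at 142.8 and 18.7 PMMR in quail and at 3.78 to 140.2 PMMR in duck (adjusted p = 0.648). It was lower in duck with the replicate block (-2.39, adjusted p = 0.00541), with first samples only (adjusted p = 0.0387) and without the second duck sample at HH25 (-2.09, adjusted p = 0.0259). No marker was listed at 0 in any sample. The facial mesenchyme strands miR-199 and miR-199* summed to 24112 and 21079 PMMR in quail and 6277 to 12888 PMMR in duck, which followed miR-199* since miR-199 was not lower. With the miR-140 and miR-455 strands added, the 6 mesenchyme and cartilage strands overlapped between species, at 40633 and 48785 PMMR in quail and 24580 to 56417 PMMR in duck.

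**Figure D5:**
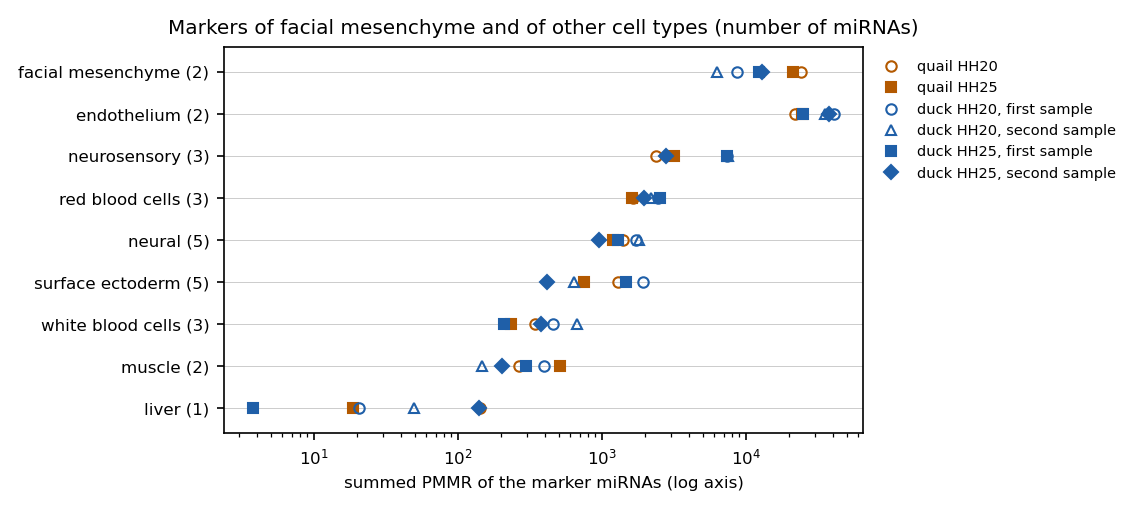
Summed PMMR (log axis) of marker miRNAs of facial mesenchyme and of 8 other cell types in each of the 6 samples, with the number of miRNAs in brackets, quail in orange and duck in blue. Duck and quail overlapped for surface ectoderm (417.5 to 1915 PMMR in duck around 753.2 and 1287 PMMR in quail). Duck was lower for the 2 facial mesenchyme strands, of which miR-199* carries the sum and miR-199 was not lower.

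Of the other families, that of miR-302 and miR-367, a marker of pluripotent cells, had no member called by limma or limma voom, and 3 of 4 had an unadjusted p under 0.05 and lay under quail at both stages. Over all 186 miRNAs, 53 had an unadjusted p under 0.05 and 41 (22.0%) lay under quail at both stages. Of the 10 samples, quail at HH20 alone exceeded 15 PMMR in miR-367 (15.3 PMMR), so the limit for entering the deposited set favoured its lower level in duck. With the replicate block limma called miR-302b (adjusted p = 0.0442) and miR-302c (adjusted p = 0.0410), as it did without the second duck sample at HH20, and miR-367 was called with first samples only (adjusted p = 0.0427) and without the intensity trend (adjusted p = 0.0390). miR-302b was at 613.3 and 197.6 PMMR in quail and at 271.9, 585.9, 66.4 and 68.3 PMMR in duck (-1.08 ± 0.43, adjusted p = 0.127). miR-302c was at 476.3 and 171.1 PMMR in quail and at 177.3, 447.5, 59.5 and 47.0 PMMR in duck (-1.22 ± 0.47, adjusted p = 0.112). Within a stage the duck samples were lower, but the second duck sample at HH20 was just 1.05-fold (miR-302b) and 1.06-fold (miR-302c) under quail. Both duck samples at HH20 were above quail at HH25. miR-222, which lowers the cell cycle inhibitor p27 in several cell lines, was at 988.8 and 555.6 PMMR in quail and at 1322, 1204, 1586 and 630.2 PMMR in duck, above quail at each stage and not called (0.60 ± 0.39, adjusted p = 0.320). miR-145, a smooth muscle miRNA, had lower values in duck (-1.23 ± 0.48, adjusted p = 0.113), as had miR-143* (-0.60 ± 0.44, adjusted p = 0.383). The species overlapped in miR-143 (45352 and 80641 PMMR in quail, 40077.5 to 112894 PMMR in duck). They also overlapped in miR-145* (114.3 and 147.9 PMMR in quail, 46.6 to 182.8 PMMR in duck). None of these 4 smooth muscle strands was called by limma or limma voom.

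Chicken, the third species, is given as a description only. The mean of the 4 chicken samples on the log2(PMMR + 1) scale was nearer to quail for 9 of the 15 higher and 6 of the 11 lower miRNAs, beside 91 of all 186. For miR-146b, chicken ran from 43.5 to 276.1 PMMR and for miR-27a from 252.0 to 473.3 PMMR, under every duck sample in both. miR-215 (168.8 to 889.5 PMMR) and miR-2970 (258.6 to 745.7 PMMR) in chicken were above every duck sample. For miR-184 chicken was at 271.2 to 1897 PMMR and for miR-1329 at 122.2 to 342.5 PMMR, in the range of duck or above it. By name, 18 of 121 miRNAs annotated in chicken were called (14.9%), 6 of 35 named from human or zebra finch (17.1%) and 2 of 30 star strands not annotated in chicken (6.67%). The part of differences between the duck, quail and reference sequences in any call was not tested.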

How the data were processed

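Total RNA from pooled FNP mesenchyme was size selected at 20 to 40 bp and sequenced on an Illumina GAIIX. Using miRanalyzer release 1, the authors assigned reads to miRBase 16 mature sequences of chicken and human, allowing 0 to 2 mismatches, and dropped miRNAs that exceeded 15 PMMR in no library. The deposited values are signal scaled to each library's total reads (PMMR), listed with that total, which entered no fit. Multiplied by the total, 100% of 2046 values were whole reads within 0.1 reads. log2(PMMR + 1) was fitted with limma 3.58.1 (R 4.3.3; intensity trend, Benjamini-Hochberg over 186 miRNAs), species and stage as terms, and a fold change on that scale understates changes of low miRNAs. The sample number marks the number of embryos pooled (40 or 5). In duck the difference between second and first sample had a correlation of 0.25 between the stages, across miRNAs, which are not independent replicates. The alternatives are those of the closing section, limma voom using TMM factors. Since quail and duck share no second samples, first samples alone were 1 of them. The fit was also run on simulated data with equal scatter in duck and quail, which says nothing on the scatter among quail samples. All called miRNAs are named, with members of 33 lists; the miRNAs of the comparison and the lists were chosen with earlier results of these data known. RefSeq names (GRCg7b) matched 168 of the 186 miRNAs and 21 of the 26 called. Scripts ran in Python 3.11.15, numpy 2.4.6 and pandas 2.3.3 and drawn with matplotlib 3.10.9.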

Additional observations from a re-analysis of the deposited data

How the results depend on the processing

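All 26 called miRNAs kept their direction under the 10 alternatives and 6 left-out samples, apart from miR-423-5p at a mean of at least 15 PMMR, where it was not fitted. Of the 26, 11 stayed called under all 10 alternatives. The number called was 24 with a pseudocount of 0.1 or a mean of at least 15 PMMR, 27 with a pseudocount of 10, 26 with TMM scaling, 28 with limma voom and 23 without the intensity trend, where 39.1% of the calls were higher in duck instead of 57.7%. Median-centring shifted the median difference by 0.22, called 32 and moved the split of higher against lower from 15 and 11 to 24 and 8. The fit of all 10 samples called 11, none outside the 26. First samples only, with 1 residual degree of freedom, called 19, of which 15 were among the 26. With the sample number as a replicate block 34 were called, 23 of them among the 26, and miR-301*, miR-363* and miR-378 were lost. The 11 gained were let-7f, miR-122, miR-145, miR-182, miR-183, miR-302b, miR-302c, miR-369-3p, miR-1246, miR-1388 and miR-1552-5p. Leaving out 1 sample gave 11 to 34 calls, with 14 without quail HH20, 11 without quail HH25 and 14 without the first duck sample at HH25. The interaction gave 0 calls with a pseudocount of 10, median-centring, all 10 samples, limma voom and each duck sample left out (limma; 4 at an unadjusted p under 0.05 in the fit of all 6). It could not be fitted with first samples only, and with a duck sample left out its single residual degree of freedom says little. For the strand ratios, first samples only gave 0 calls, a pseudocount of 10 gave 2, and leaving out 1 sample gave 0 to 5 (0 without either quail sample, 1 without the second duck sample at HH25, 5 without the first duck sample at HH20). At HH25 a 1.5-fold limit gave 104 in place of 64.

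Of the 46 named uncalled miRNAs, 11 turned sign under a setting, and the uncalled miRNAs that are not named were not counted. With first samples only, and equally with the replicate block, the log2 differences were -0.22 (miR-146a), -0.18 (miR-146c), 0.0698 (miR-7), 0.96 (miR-200a), 0.66 (miR-200b) and 0.81 (miR-429). Median-centring gave 0.20 for miR-200a, 0.0463 for miR-200b and 0.15 for miR-429. With 1 sample left out, values ran from -0.19 to 0.27 for miR-146a, -0.17 to 0.31 for miR-146c, -1.19 to 0.72 for miR-192, -1.05 to 0.19 for miR-7, -0.64 to 0.0588 for miR-363, -2.59 to 0.25 for miR-205a, -0.50 to 0.49 for miR-200a, -0.59 to 0.24 for miR-200b, -0.47 to 0.41 for miR-429, -2.13 to 0.40 for miR-122 and -0.0522 to 0.18 for miR-15a. The cause of these changes was not tested. The edgeR and DESeq2 alternatives were not run, and limma voom was the fit on recovered reads in their place. Depth limits the lowest values, where 5 reads stood behind miR-423-5p.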

Other observations

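The second chicken sample at HH25 had 219.6 PMMR of miR-192 and 532.9 PMMR of miR-122, above every duck and quail sample (highest 107.6 and 142.8 PMMR). The first chicken sample at HH25 had 258.1 PMMR of miR-199*, beside 6161 to 13066 PMMR in the other chicken samples and 3724 PMMR as the lowest duck value, and 57.4 PMMR of miR-199, while its ratio of the 2 strands was 0.222 beside 0.224 to 0.360 in the other chicken samples. In chicken the ratio of miR-301 to miR-301* was 2.36 to 5.75, and that of miR-106 to miR-106* 456.5 to 1898. That first HH25 chicken sample also had 466.6 PMMR of miR-34c, beside 4.22 to 13.2 PMMR in the other chicken samples. Between the first and second duck samples, 53 of the 186 miRNAs differed at least 2-fold at HH20 and 35 at HH25, on the log2(PMMR + 1) scale.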
